A study of Mus musculus with 6 samples.

Results

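The Slc12 genes encode the cation chloride cotransporters of the cell membrane. Here 6 of them were followed in mouse pancreatic islets: Slc12a2, Slc12a4, Slc12a5, Slc12a7, Slc12a8 and Slc12a9. Their members are the 12 probe sets whose platform symbol was exactly 1 of these genes, of 45037 probe sets tested on the array. The family was picked because 1 probe set of Slc12a7 was known to differ between the groups, so all Tead1KO and Flox values of the 6 genes are given as a description, with no test. RNA of whole islets from 12-week-old male C57Bl6 mice was hybridized to Affymetrix whole-genome mouse expression arrays. The first group, Tead1KO, holds 3 arrays of islets from mice in which Tead1, a DNA-binding transcription factor of the Hippo pathway, was knocked out only in beta cells. The other, Flox, holds 3 arrays of islets from flox control mice of the same strain, sex and age. No label states which promoter drove Cre, or whether the controls carried it, so an effect of a Cre transgene and loss of Tead1 cannot be told apart. They do not tie arrays to single animals either, so p-values measure the spread between these arrays, which may be technical.

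Cation chloride cotransporters move chloride together with sodium or potassium without moving net charge. Slc12a2 (NKCC1) uses the sodium gradient to bring chloride into the cell, and Slc12a4 (KCC1), Slc12a5 (KCC2) and Slc12a7 (KCC4) use the potassium gradient to carry it out. The balance between import and export sets whether opening a chloride channel depolarises or hyperpolarises the membrane, and both directions of transport also serve cell volume control. In beta cells chloride is held above its equilibrium level, and its exit through channels adds to the depolarisation that precedes insulin release. WNK kinases act through SPAK and OSR1 to switch the importers on and the exporters off.

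Values are log2 probe set signals, and differences are Tead1KO minus Flox. Control probe sets for bacterial RNAs absent from the samples read 2.87 to 4.70, and this range is taken as background. Array medians lay between 5.17 and 5.37. Tead1KO replicate 3 stood apart: its hybridization controls, bacterial RNAs spiked into every sample, averaged 13.23 (against 10.60 to 12.09 on the other arrays). Its mean correlation with the other arrays was the lowest, 0.969 (against 0.984 to 0.986). The targeted gene did not check the labels. Tead1 read 6.72, 7.49 and 5.95 on Tead1KO arrays 1 to 3, against 7.22, 6.99 and 7.40 on Flox arrays 1 to 3, at 1 probe set. At its other probe set it read 5.58, 5.41 and 4.98 in Tead1KO, against 6.14, 5.33 and 5.11 in Flox. The groups overlapped at both, other islet cells keep the gene, and the labels do not say whether either probe set lies in the deleted stretch.

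Slc12a7 had the largest difference of the 12 probe sets, and Slc12a2 the largest in the opposite direction. Of the 12, 1 was called lower in Tead1KO and 0 higher, where a call is a limma adjusted p under 0.05 over all 45037 probe sets. Of all probe sets tested, 0.0488% were called lower and 0.131% higher, 0.18% together. The called probe set is the one that led to the choice of the family, so nothing is read from this count. The 3 Tead1KO and 3 Flox arrays did not overlap at 2 member probe sets that were lower in Tead1KO and at 3 that were higher, and 5.16% and 5.36% of all probe sets were separated in these directions. Both group means lay above background at 5 of the 12 probe sets, only the Tead1KO mean at 2, only the Flox mean at 1, and neither at 4. The median difference of the 12 was 0.03, the same as over all probe sets (0.03).

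**Figure D1:**
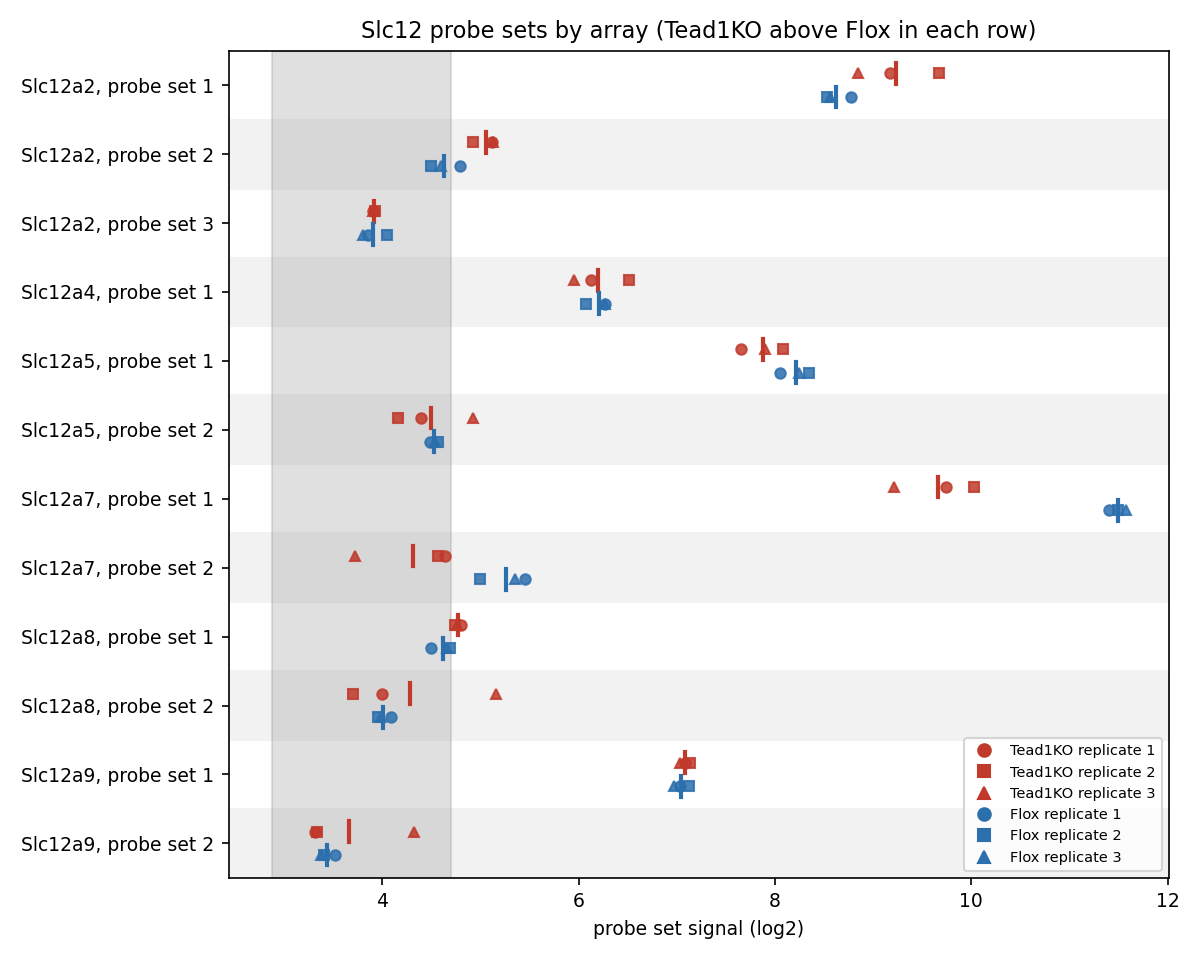
Log2 signal (x axis) of the 12 Slc12 probe sets, numbered within each gene from the highest mean signal; points are single arrays (red Tead1KO in the upper line of each row, blue Flox in the lower, symbol by replicate), upright bars give group means and grey shading marks the background range of 2.87 to 4.70. Slc12a7 probe set 1 has its 3 Tead1KO arrays between 9.21 and 10.02 and its 3 Flox arrays between 11.40 and 11.58.

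Among the chloride exporters, Slc12a7 read 9.74, 10.02 and 9.21 on Tead1KO arrays 1 to 3, against 11.40, 11.50 and 11.58 on Flox arrays 1 to 3, at its brighter probe set. Every Tead1KO array lay more than a full log2 unit below every Flox array. The group means were 9.66 ± 0.41 in Tead1KO and 11.49 ± 0.09 in Flox (SD, n = 3 each), a difference of -1.83 (SE 0.21), or 3.56-fold lower in Tead1KO. The spread was wider among the Tead1KO arrays, where replicate 3 was lowest and replicate 2 highest. Slc12a7 is annotated at chr13:73733052-73816754 (GRCm38.p6). The values are of whole islets, so fewer cells that carry the transcript and less transcript per cell cannot be told apart.

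The second Slc12a7 probe set, designed from the same source sequence, was dim. It read 4.63, 4.57 and 3.72 in Tead1KO, against 5.45, 4.99 and 5.35 in Flox. All 3 Tead1KO arrays were within background and all 3 Flox arrays above it. Its difference was -0.96 (SE 0.26), and with the Tead1KO mean set to the highest background value the signal was at least 1.48-fold lower in Tead1KO.

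Slc12a5, known best as the exporter of neurons, read 7.66, 8.08 and 7.90 in Tead1KO, against 8.06, 8.35 and 8.24 in Flox, at its brighter probe set. The groups overlapped at a single pair of arrays, Tead1KO replicate 2 and Flox replicate 1. The means were 7.88 ± 0.22 in Tead1KO and 8.22 ± 0.15 in Flox (SD, n = 3 each), a difference of -0.34 (SE 0.18). The dimmer Slc12a5 probe set lay within background in both group means and differed by -0.04 (SE 0.20). Slc12a4, the widely expressed exporter, read 6.13, 6.51 and 5.96 in Tead1KO, against 6.27, 6.08 and 6.26 in Flox. Its Tead1KO arrays lay on both sides of the Flox arrays, and the difference of -0.01 (SE 0.19) was far smaller than the spread of either group. Both differences were smaller than that of Slc12a7, and neither gene separated the groups.

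Sequences just upstream of the exporters' start sites are shown because Tead1 is a DNA-binding factor. Each sequence is the 250 bases before an annotated transcript start, from RefSeq, build GRCm38.p6, read 5′ to 3′ on the gene's strand. TEAD factors bind the 6-base element CATTCC, or GGAATG read on the opposite strand, and capitals mark it. The first of 2 Slc12a7 windows lies at chr13:73763410-73763659 on the plus strand, the second of 2 Slc12a5 windows, the one that holds the element, at chr2:164967738-164967987 on the plus strand and the Slc12a4 window at chr8:105966116-105966365 on the minus strand.
Slc12a7: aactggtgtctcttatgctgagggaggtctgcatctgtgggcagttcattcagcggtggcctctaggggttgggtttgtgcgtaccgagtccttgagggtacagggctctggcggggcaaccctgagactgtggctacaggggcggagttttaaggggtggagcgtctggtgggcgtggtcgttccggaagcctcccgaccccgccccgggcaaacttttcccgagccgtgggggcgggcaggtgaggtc
Slc12a5: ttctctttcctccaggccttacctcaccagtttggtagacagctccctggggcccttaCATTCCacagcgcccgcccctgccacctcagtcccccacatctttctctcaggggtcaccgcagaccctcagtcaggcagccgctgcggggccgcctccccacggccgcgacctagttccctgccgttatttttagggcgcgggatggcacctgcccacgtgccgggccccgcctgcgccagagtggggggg
Slc12a4: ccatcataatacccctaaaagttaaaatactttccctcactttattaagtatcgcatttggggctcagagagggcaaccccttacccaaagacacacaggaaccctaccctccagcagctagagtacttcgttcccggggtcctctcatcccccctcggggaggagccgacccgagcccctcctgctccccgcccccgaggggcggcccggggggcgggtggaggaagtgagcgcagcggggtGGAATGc

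RefSeq windows were matched for 5 of the 6 genes, all but Slc12a2, with 9 windows in all. The element was present in 3 of the 9, 1 each of Slc12a4, Slc12a5 and Slc12a8, on either strand and with no overlap between matches. Of all 32851 windows of this length, 12.6% held it. In the Slc12a4 window it begins 7 bases before the start site, and in the second Slc12a5 window 192 bases before it. The other Slc12a5 window, at chr2:164960596-164960845 directly before the annotated gene start, does not hold it. In the Slc12a8 window at chr16:33517945-33518194 (plus strand) it begins 177 bases before the start, and 2 of the 3 Slc12a8 windows and the Slc12a9 window lack it. Neither of the 2 overlapping Slc12a7 windows holds these letters. Both lie inside the annotated span of Slc12a7, and no window before the annotated start at position 73733052 was searched. The Slc12a5 and Slc12a8 windows that hold the element and the Slc12a9 window also lie inside the annotated spans of their genes. The Slc12a4 window overlaps the annotated span of its gene, which ends at position 105966149, and its element lies in the overlap. A match is a description of sequence and not a binding site, and no match says only that the letters are not in this window.

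Slc12a2, the importer, read 9.17, 9.67 and 8.84 in Tead1KO, against 8.77, 8.53 and 8.56 in Flox, at its brightest probe set. All 3 Tead1KO arrays lay above all 3 Flox arrays, but Tead1KO replicate 3 was above the highest Flox array by less than the Flox arrays spanned among themselves. The means were 9.23 ± 0.42 in Tead1KO and 8.62 ± 0.13 in Flox (SD, n = 3 each), a difference of 0.61 (SE 0.23), or 1.53-fold higher in Tead1KO. The second probe set read 5.12, 4.92 and 5.13 in Tead1KO, against 4.79, 4.50 and 4.59 in Flox. Its groups were also separate, with the Flox mean within background, a difference of 0.43 (SE 0.15) and a signal at least 1.28-fold higher in Tead1KO. The third lay within background on all 6 arrays and differed by 0.01 (SE 0.12). All 3 were designed from 1 source sequence, so they are not independent readings of the gene.

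Importer and exporters were set side by side as deviations from each probe set's own Flox mean, since signals of different probe sets cannot be compared. Slc12a2 deviated by 0.56, 1.05 and 0.22 on Tead1KO arrays 1 to 3, against 0.15, -0.09 and -0.06 on Flox arrays 1 to 3. Slc12a7 deviated by -1.75, -1.47 and -2.28 in Tead1KO, against -0.09, 0.01 and 0.09 in Flox. The array with the highest Slc12a2 also had the highest Slc12a7 among the Tead1KO arrays, and the array with the lowest Slc12a2 had the lowest Slc12a7. The interquartile range of all probe sets had the same order, 3.32 on Tead1KO replicate 2, 2.99 on replicate 1 and 2.65 on replicate 3. Flox arrays had 3.11 to 3.19. The shared order is therefore not read as a link between the 2 genes, and the part of array-wide signal scale was not tested.

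The importer's deviation minus the mean deviation of Slc12a4, Slc12a5 and Slc12a7 was 1.35, 1.48 and 1.17 in Tead1KO, against 0.21, -0.09 and -0.12 in Flox. The mean was 1.34 ± 0.16 in Tead1KO and 0 ± 0.18 in Flox, where it is 0 by construction (SD, n = 3 each). The importer minus exporter value varied less between the Tead1KO arrays than Slc12a2 (SD 0.42) or Slc12a7 (SD 0.41) did alone. Between the Flox arrays it varied more (SD 0.18, against 0.13 for Slc12a2 and 0.09 for Slc12a7). Subtraction removes any shift that an array gives to all these probe sets, so nothing is read from the smaller spread in Tead1KO. The value was 0.78 when Slc12a7 was left out of the exporters and 1.10 with all probe sets above background averaged within each gene. It carries no test, since the genes were chosen on this contrast.

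**Figure D2:**
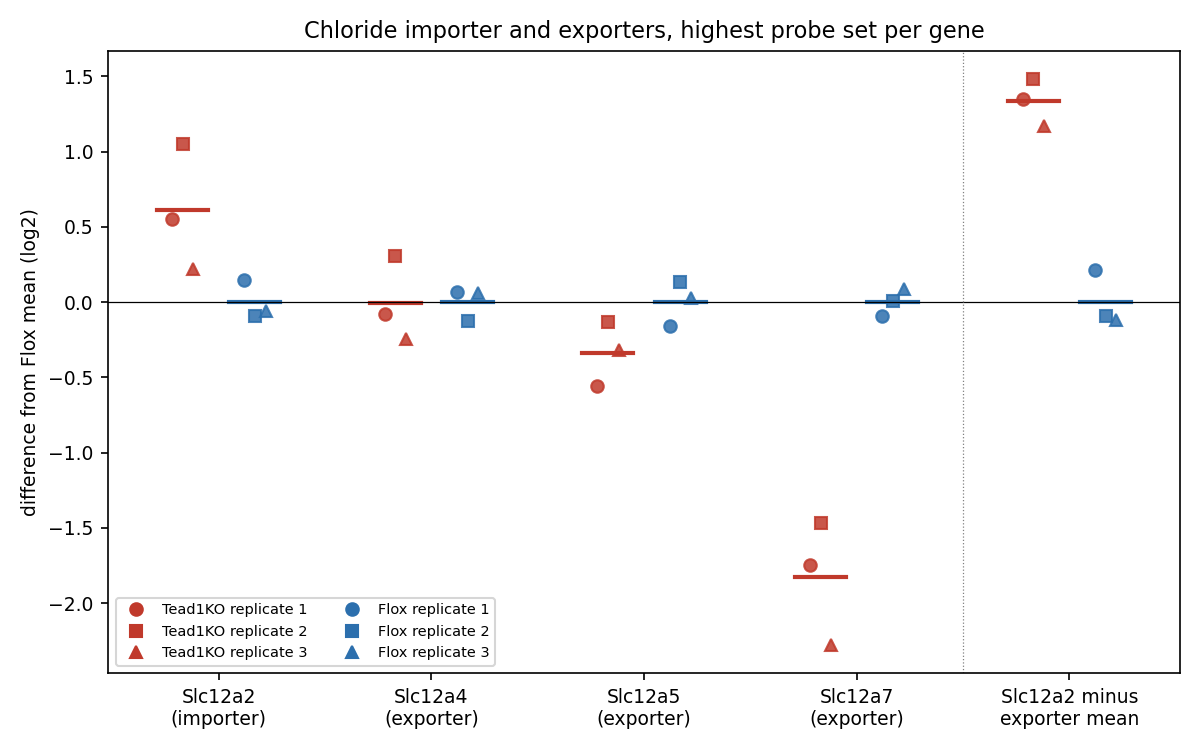
Deviation from the Flox mean (log2, y axis) of the brightest probe set of the importer Slc12a2 and the exporters Slc12a4, Slc12a5 and Slc12a7, and the importer minus the mean of the 3 exporters; points are single arrays (red Tead1KO left, blue Flox right, symbol by replicate) and bars are group means. The last column has its Tead1KO arrays between 1.17 and 1.48 and its Flox arrays between -0.12 and 0.21.

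Slc12a8 and Slc12a9 belong to neither class. Slc12a9, an orphan member of the family also called cotransporter interacting protein, read 7.09, 7.13 and 7.03 in Tead1KO, against 7.03, 7.13 and 6.97 in Flox, at its brighter probe set. This was the tightest of the probe sets above background, with means of 7.08 ± 0.05 in Tead1KO and 7.04 ± 0.08 in Flox (SD, n = 3 each) and a difference of 0.04 (SE 0.15). Slc12a8, whose transported substrate is debated, read 4.80, 4.74 and 4.76 in Tead1KO, against 4.50, 4.69 and 4.66 in Flox. The groups did not overlap, but the Flox arrays were all within background and the Tead1KO arrays just above it, so the difference of 0.15 (SE 0.13) sits at the detection limit. The dimmer probe sets of Slc12a8 and Slc12a9 had both group means within background, and in both Tead1KO replicate 3 was the highest array, at 5.16 and 4.32.

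The sodium-coupled importers that are not among the 6 genes, Slc12a1 (NKCC2) and Slc12a3 (NCC), are known from the kidney. The brighter Slc12a1 probe set read 4.97, 4.69 and 4.92 in Tead1KO, against 5.07, 4.98 and 5.03 in Flox (difference -0.17, SE 0.14, limma adjusted p = 0.871). Its groups were separate and lower in Tead1KO, the direction opposite to Slc12a2, as were 5.16% of all probe sets. The dimmer Slc12a1 probe set and both Slc12a3 probe sets had group means within background, so they gave no signal above background on these arrays.

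The kinases, channels, exchangers and pumps that work with these cotransporters were tested in the same fit. Of 152 probe sets for 70 of the 80 genes on 5 lists, 0 were called by limma in either direction, where 0.18% of all probe sets were called, and 7 had an unadjusted p under 0.05, as did 5.18% of all probe sets. By its brightest probe set, the median gene of these lists differed by 0.04, against -0.01 over all 18193 genes.

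**Figure D3:**
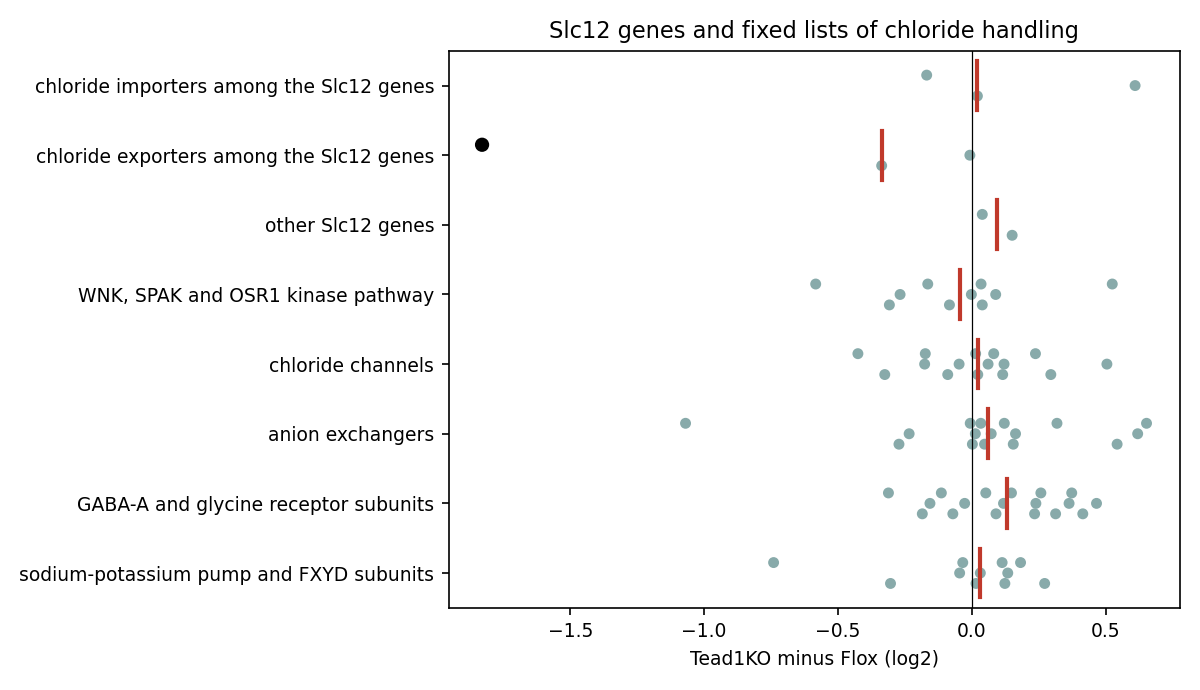
Tead1KO minus Flox (log2, x axis) of the brightest probe set of each measured gene, by list; black marks a probe set called at a limma adjusted p under 0.05, grey the others, and red ticks are list medians. Slc12a7 at -1.83 is the only black point, and the other lists have medians between -0.04 and 0.13.

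Of 10 measured genes of the WNK, SPAK and OSR1 pathway, 0 were called and 0 reached even an unadjusted p of 0.05, and the list median was -0.04. Cul3, a scaffold of the ubiquitin ligase that degrades WNK kinases, differed by -0.58 (SE 0.28, limma adjusted p = 0.871), and its other 4 probe sets by -0.22 to -0.05. Wnk3 differed by 0.53 (SE 0.26), with Flox replicate 1 (9.15) among the Tead1KO arrays (8.93 to 9.30). Wnk1 differed by -0.27 (SE 0.23). Of 15 chloride channel genes, 0 were called and 0 reached an unadjusted p of 0.05, and the list median was 0.02. Lrrc8d, a subunit of the volume-regulated anion channel, read 8.62, 8.64 and 8.51 in Tead1KO, against 8.92, 8.95 and 8.87 in Flox (difference -0.32, SE 0.15, limma adjusted p = 0.871). These groups were separate, as were 10.5% of all probe sets in either direction. Best1 differed by 0.30 (SE 0.20) and Clcn3, an endosomal chloride and proton exchanger, by 0.51 (SE 0.37). The second brightest Clcn3 probe set differed by -0.09 (SE 0.43) and the other 3 by 0.28 to 0.38.

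Of 16 anion exchanger genes, 0 were called, and 2 higher and 1 lower had an unadjusted p under 0.05 (2.37% and 2.81% of all probe sets did), around a list median of 0.06. Slc26a2, a sulfate and anion transporter, read 8.30, 8.55 and 7.92 in Tead1KO, against 7.74, 7.39 and 7.68 in Flox (difference 0.65, SE 0.21, limma adjusted p = 0.697). Its other probe sets differed by 0.63 and 0.37. Slc26a11, a further member of that family, differed by 0.62 (SE 0.20, limma adjusted p = 0.729). Slc4a10, a sodium-coupled bicarbonate transporter, read 7.64, 7.77 and 6.33 in Tead1KO, against 8.63, 8.15 and 8.17 in Flox (difference -1.07, SE 0.37, limma adjusted p = 0.810). For all 3 genes the groups were separate at the probe set used, yet none passed the test.

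Of 18 GABA-A and glycine receptor subunit genes, whose channels pass chloride, 0 were called and the median was 0.13. In this list 1 gene, higher in Tead1KO, had an unadjusted p under 0.05, as did 2.37% of all probe sets in that direction. Only 8 of the 18 had a group mean above background. Gabrg1 (0.37, SE 0.14), Glra1 (-0.31, SE 0.17) and Gabra2 (0.31, SE 0.19) had the smallest unadjusted p, and all 3 lay within background in both group means. Of 11 sodium-potassium pump and FXYD subunit genes, 0 were called and the median was 0.03. Here 1 gene, lower in Tead1KO, had an unadjusted p under 0.05, as did 2.81% of all probe sets in that direction. Fxyd3, a small regulator of the pump, differed by -0.74 (SE 0.29, limma adjusted p = 0.871), with Flox replicate 2 (8.72) among the Tead1KO arrays (8.14 to 8.79). Fxyd7 differed by 0.27 (SE 0.20) and Atp1b2, a beta subunit of the pump, by -0.30 (SE 0.27), while a dimmer Atp1b2 probe set differed by 0.13 (SE 0.17).

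Cell type markers were set beside the members because islet preparations hold several cell types. The tissue label was borne out by hormone genes, with Ins2 at 15.69 in both groups and Gcg, the glucagon gene, at 14.74 in both. The mean signal of 12 islet endocrine markers was 12.20, 12.30 and 12.07 in Tead1KO, against 12.32, 12.30 and 12.31 in Flox. The highest Tead1KO mean lay just below the lowest Flox mean, but 6 of the 12 genes lay above 0 and the list median was -0.002. Slc2a2, the glucose transporter of beta cells, differed by -0.82 and Pdx1, a beta cell transcription factor, by -0.66, each with separate groups. Irx2, a transcription factor of alpha cells, differed by 0.31 and Ghrl, the ghrelin gene, by -0.31, each with overlapping groups. Gcg differed by 0.002 and Iapp, a beta cell hormone gene, by 0.03. Without Slc2a2 and Pdx1, a split chosen after the values were seen, the groups overlapped. The mean was then 12.48 to 12.59 in Tead1KO, against 12.50 to 12.58 in Flox. Ins2 lay at the top of the signal range of the arrays, with Iapp and Gcg close below it. Whether probe sets this bright can still show a change was not tested. The list median and the mean without Slc2a2 and Pdx1 are therefore not read as unchanged endocrine content. Neuron and Schwann cell markers (10 genes) averaged 6.48 to 6.65 in Tead1KO, against 6.69 to 6.70 in Flox, with 5 of 10 above 0 and a list median of -0.045. Elavl4, an RNA-binding protein of neurons, differed by -1.10 and Syp, a synaptic vesicle protein, by 0.27, each with separate groups. Whole-islet values do not show whether neurons or endocrine cells carried these transcripts, so the list is not a measure of neural cells alone. Without Elavl4, likewise chosen after its value was seen, the mean was 6.32 to 6.51 in Tead1KO, against 6.43 to 6.47 in Flox, so the lower list mean rested on that gene. None of these list genes was called, and the part of any cell type in the members' values was not tested. Acinar markers (8 genes) averaged 12.37 to 14.28 in Tead1KO, against 12.24 to 14.37 in Flox, and duct markers (5 genes) 7.34 to 7.78 in Tead1KO, against 7.50 to 7.85 in Flox. These ranges overlapped between the groups, and Slc12a2 is also known from exocrine cells. Endothelial markers (8 genes) averaged 7.84 to 8.14 in Tead1KO, against 7.96 to 8.04 in Flox, stromal markers (9 genes) 7.25 to 7.78 in Tead1KO, against 7.34 to 7.51 in Flox, and immune markers (8 genes) 6.78 to 7.44 in Tead1KO, against 6.77 to 7.11 in Flox, with overlap in each. The stromal mean joined genes on both sides of 0, with 7 of 9 above it. Dcn (1.11) and Col1a2 (0.62), matrix genes of fibroblasts, lay above 0, and Acta2 (-0.99) and Rgs5 (-0.62), genes of contractile mural cells, below it. These 4 of 9 had an unadjusted p under 0.05, as did 5.18% of all probe sets, and the groups were separate for all but Rgs5. Smaller differences above 0 were those of Lum (0.48), Pdgfrb (0.20), Col1a1 (0.15), Col3a1 (0.06) and Pdgfra (0.04). A split of the list by cell type was not tested. Among the immune genes C1qa, a complement gene of macrophages, differed by 1.08 with overlapping groups and was the only 1 of 8 at an unadjusted p under 0.05. None of these genes was called by limma.

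Genes next to Slc12a7 on chromosome 13 were examined after the values were seen. Of 13 measured genes within 250 kb of it, 0 were called by limma, where 0.18% of all probe sets were called, and differences ran from -0.65 to 0.44. Of the 13, 1 had an unadjusted p under 0.05, as did 5.18% of all probe sets. That gene, Brd9, a subunit of a chromatin remodelling complex, differed by -0.53 (limma adjusted p = 0.871). Nkd2, an antagonist of Wnt signalling whose annotated span begins 1779 bases beyond the end of Slc12a7, read 5.83, 5.50 and 5.86 in Tead1KO, against 5.91, 5.95 and 5.83 in Flox (difference -0.17).

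The genes with the array pattern most like that of the bright Slc12a7 probe set were found by Pearson correlation over the 6 arrays, among 14593 other genes above background. They were Spata13, a guanine nucleotide exchange factor (r = 0.996), Trpm5, a calcium-activated cation channel (r = 0.995), and Mras, a Ras-related small GTPase (r = 0.994). Chrm1, a muscarinic acetylcholine receptor (r = 0.993), Rpia, an enzyme of the pentose phosphate pathway (r = 0.993), and Fam221a (r = 0.992) followed. Their differences were -1.13, -1.49, -0.68, -0.35, -0.74 and -0.61 in this order. All 6 had separate groups and lower values in Tead1KO. This follows from choosing them by likeness to a probe set with widely separate groups, so nothing is read from it. Such values rest on only 6 points that share their arrays and the offset between the groups, and are a description.

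The difference at the bright Slc12a7 probe set ran from -2.01 to -1.56 over 14 alternative settings, as a description. Its limma adjusted p lay above 0.05 with median centring of the arrays (difference -1.89, SE 0.26), without Tead1KO replicate 1 (-1.87), and without Flox replicate 1 (-1.88), 2 (-1.83) or 3 (-1.79). Its difference was -1.61 without Tead1KO replicate 3, the array that stood apart, and -1.56 with the spiked hybridization controls as covariate. For Slc12a2 the same 2 settings gave 0.80 and 0.81, and without Tead1KO replicate 2 the value was 0.39. Where the groups do not overlap, leaving out an array cannot turn the direction, so its constancy there adds nothing.

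**Figure D4:**
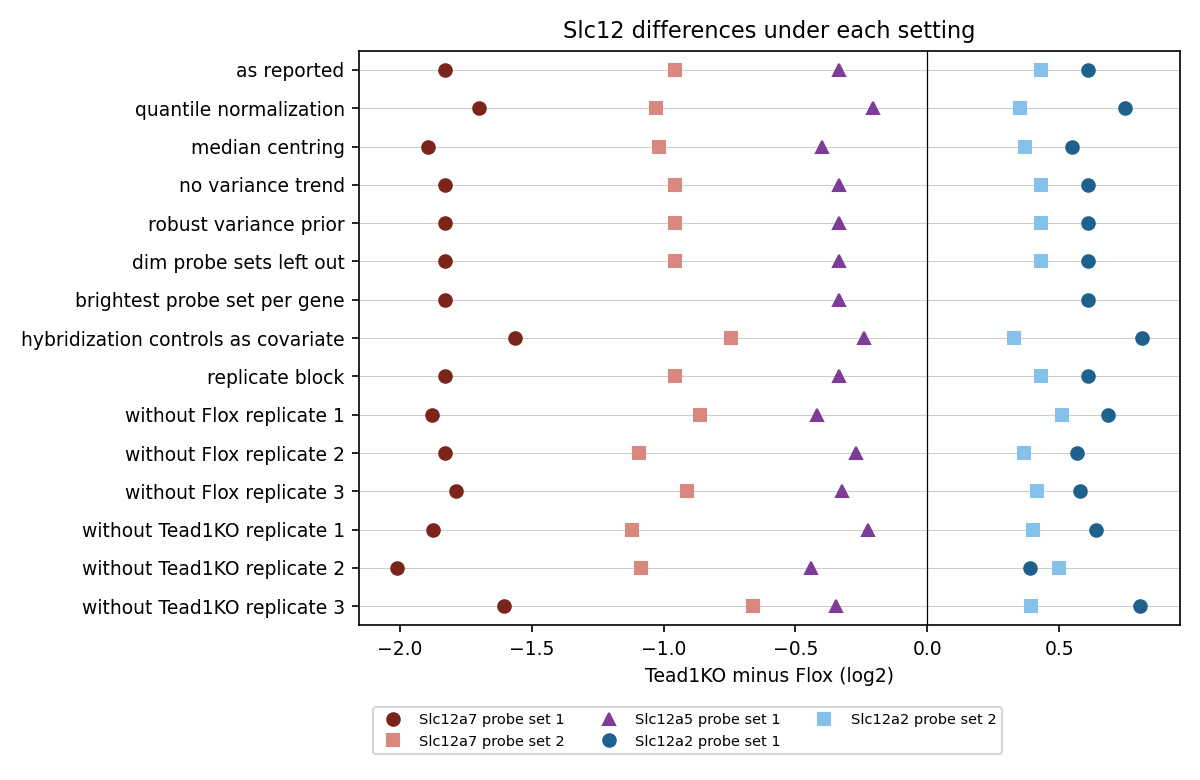
Tead1KO minus Flox (log2, x axis) of 5 Slc12 probe sets under the reported fit (top) and each alternative setting (rows). Slc12a7 probe set 1 lies between -2.01 and -1.56, and Slc12a2 probe set 1 between 0.39 and 0.81; dimmer probe sets have no value where only the brightest probe set of a gene was kept.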

How the data were processed

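The authors deposited log2 probe set signals, which Expression Console of Affymetrix produced, per the submitters' processing notes; the sources used here give neither its version nor how signals were normalized and summarised. That values are log2 follows from their range, 2.75 to 15.7. The table held 45101 probe sets, and 64 controls were left out. Of the rest 34945 carried 1 platform symbol, 932 several and 9160 none here. Each probe set was tested with limma 3.58.1 under R 4.3.3 (lmFit, eBayes with trend=TRUE, no covariate, no filter on dim signals), with Benjamini-Hochberg adjustment over 45037 probe sets, after a check on simulated data. SE is moderated. For arrays, their number limits the precision.

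Members and lists were chosen with earlier results of these data known. Named genes were all members, Tead1, Slc12a1, Slc12a3, up to 3 genes per list with the smallest unadjusted p, and the 6 most like Slc12a7. Marker, neighbour and whole-table values were given where they bear on members. Alternatives were other scalings, variance priors, dim probe sets left out, the brightest probe set per gene, covariates, a replicate block and each array left out.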

Additional observations from a re-analysis of the deposited data

How the results depend on the processing

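Over all probe sets 81 were called. Quantile normalization gave 143, median centring 42, hybridization controls as covariate 268, and there were 143 at an adjusted p under 0.1 and 4 to 239 when each array was left out in turn, lowest without Tead1KO replicate 1 and highest without Tead1KO replicate 2. The cause was not tested. The count of called members, 1, was 0 with median centring and 0 to 1 without single arrays. The importer minus exporter value of 1.34 was 1.10 with probe sets averaged, 0.78 without Slc12a7, 1.26 to 1.44 without single arrays, and 1.37 with hybridization controls as covariate (chosen after seeing the data). The count of called probe sets on the 5 lists, 0, was 0 to 1 without single arrays. The 1 was a dimmer probe set of Slc26a3, an intestinal anion exchanger, without Tead1KO replicate 3 (1.38, limma adjusted p = 0.0325, against 0.91 and adjusted p = 0.871 with all arrays, and adjusted p from 0.0556 to 0.9999 in the other alternatives). With all arrays the brightest Slc26a3 probe set differed by 0.03 (SE 0.15), and both its group means lay within background. The bright probe sets of Slc12a4 and Slc12a9 kept their direction in 9 and 13 of 14 alternatives, so no direction is given for them. With the replicate number as a block, 96 probe sets were called, with 1 member and 0 list probe sets among them. Deviations of same-numbered arrays correlated at 0.06, 0.35 and -0.20. With 3 arrays per group these values cannot decide whether the numbers pair the arrays. Acinar marker means were 12.37, 14.28 and 13.53 on Tead1KO arrays 1 to 3. They were 12.24, 14.10 and 14.37 on Flox arrays 1 to 3, close by number for replicates 1 and 2 but not for replicate 3. A batch shared by number was not tested. Signals within background limit what the dim probe sets can show.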
